A study of Drosophila melanogaster with 20 samples.

Results

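Antioxidant defence genes were followed in heads of male Drosophila melanogaster: the 10 genes Sod, Sod2, Cat, PHGPx, Jafrac1, Trxr-1, Gclc, Gclm, Keap1 and cnc. They were chosen by symbol, and 10 of 10 were found among the 9831 genes of the deposited table. Sod (FBgn0003462), Cat (FBgn0000261) and PHGPx (FBgn0035438) lie on chromosome arm 3L, Gclm (FBgn0046114), Keap1 (FBgn0038475) and cnc (FBgn0262975) on 3R, Sod2 (FBgn0010213) on 2R, and Jafrac1 (FBgn0040309), Trxr-1 (FBgn0020653) and Gclc (FBgn0040319) on the X chromosome. The study asked how ageing to midlife changes gene expression in wild-type and mutant flies. The 4 groups were midlife chm/+ (22 to 23 days, 5 libraries), young chm/+ (7 days, 6 libraries), midlife wt (22 to 23 days, 4 libraries) and young wt (7 days, 5 libraries). In chm/+ flies 1 copy of chameau (chm), a MYST-type histone acetyltransferase gene, is mutant, and the labels name neither the allele nor the strain background of either genotype. The flies of all groups were males from populations that held both sexes, and each sample pooled RNA of 25 to 30 heads, so a value is a mean over many animals and all cell types of the head. Polyadenylated RNA was sequenced as single reads of 50 bases.

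Cells remove superoxide in steps. Superoxide dismutases turn it into hydrogen peroxide, and catalase, peroxiredoxins and glutathione peroxidase homologues then reduce peroxides. In flies, which lack a glutathione reductase, thioredoxin reductase keeps both the thioredoxin and the glutathione pool reduced, and glutamate-cysteine ligase catalyses the first step of glutathione synthesis. Many of these genes are targets of CncC, the fly homologue of the vertebrate factor Nrf2, which Keap1 holds inactive until oxidants or electrophiles release it.

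The mutated gene itself separated the genotypes: chm stood at 283 to 364 normalized counts in the 11 chm/+ libraries, against 571 to 678 in the 9 wt libraries. Libraries are named by their table columns (CHMo, midlife chm/+; CHMy, young chm/+; 2uo, midlife wt; 2uy, young wt), which the labels tie to groups but not to single samples. Nothing says whether libraries of a group came from separate populations, so the p-values measure the spread between these libraries only. The first component of the within-group variation (47.0% of it) put the first 10 table columns at -27.5 to -4.66 and the last 10 at 0.963 to 23.6, except 2uo2 at -11.9, so 2uo2 lay with the other set, and CHMy2 lay at the extreme of -27.5. CHMo12 was the extreme of the second component, at 23.2. No batch is labelled, and both column sets hold all 4 groups. Head marker genes were present in every group, with all 6 neuron, all 6 photoreceptor and all 6 glia markers measured, whereas 0 of 8 testis and accessory gland markers were in the table.

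The members covered a wide range of levels. Per kilobase of exon, Sod, which encodes the cytosolic copper-zinc superoxide dismutase, was highest, with a mean of 16715 normalized counts per kilobase over the 20 libraries. Cat, encoding the peroxisomal catalase (6786), Jafrac1, a cytosolic thioredoxin-dependent peroxiredoxin gene (6553), and PHGPx, a glutathione peroxidase homologue gene (4787), came next. Trxr-1, the thioredoxin reductase gene (2258), Gclm, for the modifier subunit of glutamate-cysteine ligase (2219.9), and Sod2, for the mitochondrial manganese superoxide dismutase (2071), lay close together. Below them stood cnc (1247), Gclc, for the catalytic subunit of the ligase (676), and Keap1 (235). Neighbours in this order whose means lay closer than their spread between libraries were Cat and Jafrac1, and Trxr-1, Gclm and Sod2, and in midlife wt heads also Jafrac1 (6270.2 ± 592) and PHGPx (5914 ± 1057, SD, n = 4 each). The highest library exceeded the lowest 1.40-fold for Jafrac1 and 2.36-fold for Gclm, with the other members in between, beside a median of 1.78-fold over all genes.

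**Figure D1:**
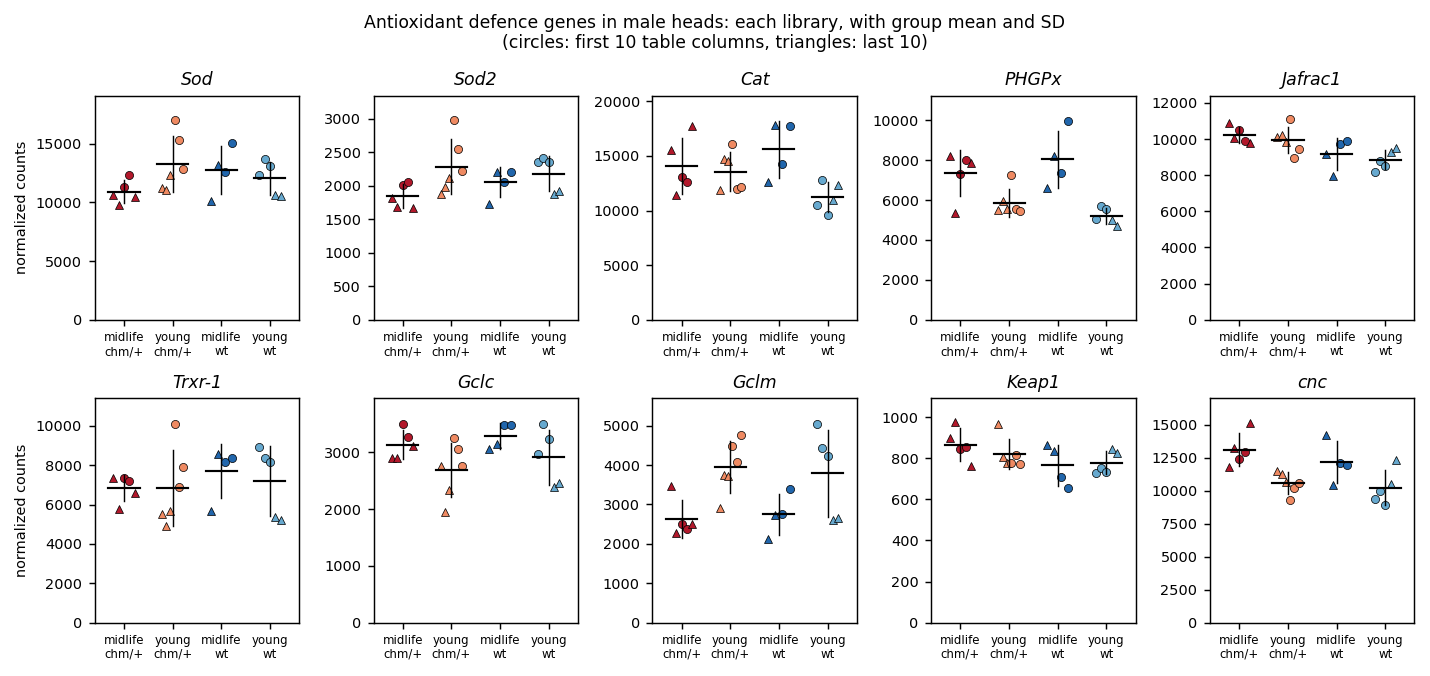
Normalized counts (y axis, from 0) of the 10 antioxidant defence genes in each of the 20 libraries, by group on the x axis; horizontal lines are group means, vertical lines the SD, circles the first 10 table columns and triangles the last 10. PHGPx lies higher in all 4 midlife wt libraries (6625 to 9953) than in the 5 young wt libraries (4712 to 5712), and cnc higher in all 5 midlife chm/+ libraries (11817 to 15147) than in the 6 young chm/+ libraries (9275 to 11512).

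With age, 2 of the 10 genes were called in each genotype, and they were not the same ones. In wt heads PHGPx and Cat were higher at midlife, and in chm/+ heads cnc was higher and Gclm lower. Genes were called at a Benjamini-Hochberg adjusted p under 0.05 over all 9831 genes, from limma on the log2 of the normalized count plus 14.5. In wt the 2 called members stand beside 23.7% of all genes called, and in chm/+ the 2 called members stand beside 16.0%, so the share of members is near the share of all genes in both. By direction, 8.63% of all genes were called higher and 7.36% lower with age in chm/+, and 12.4% higher and 11.3% lower in wt. The median log2 change of the members was 0.04 in chm/+ and 0.09 in wt, against -0.01 and -0.02 over all genes. At an unadjusted p under 0.05 there were 5 members in chm/+ (27.4% of all genes) and 4 in wt (34.5%).

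The superoxide dismutase genes were not called with age in either genotype. Sod averaged 10924 ± 956 normalized counts in midlife chm/+ (SD, n = 5) and 13312 ± 2378 in young chm/+ (SD, n = 6), a log2 change of -0.27 (95% interval -0.52 to -0.02, adjusted p = 0.145). Sod2 averaged 1847 ± 181 in midlife chm/+ (SD, n = 5) and 2283 ± 412 in young chm/+ (SD, n = 6), a log2 change of -0.29 (95% interval -0.52 to -0.06, adjusted p = 0.0877). For both genes the groups overlapped, and CHMy2 was the highest of the 20 libraries. In wt, Sod changed by 0.07 on the log2 scale (95% interval -0.21 to 0.35) between a mean of 12731 ± 2045 at midlife (SD, n = 4) and 12060.2 ± 1412 in young flies (SD, n = 5). Sod2 changed by -0.09 (95% interval -0.35 to 0.17), with 2049 ± 225 at midlife wt (SD, n = 4) and 2181 ± 259 in young wt (SD, n = 5). With the column set as a term in the model, the chm/+ changes were called for both Sod (-0.24, adjusted p = 0.0382) and Sod2 (-0.26, adjusted p = 0.0140).

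PHGPx, whose mammalian counterpart removes lipid hydroperoxides from membranes, had the largest called change among the members. It stood at 7342, 9953, 6625 and 8230.1 normalized counts in the midlife wt libraries, against 5028, 5712, 5532, 5004 and 4712 in the young wt libraries. Every midlife wt library lay above every young wt library, which held for 10.9% of all genes in this direction. The log2 change was 0.61 (SE 0.13, adjusted p = 0.00159), or 1.53-fold (95% interval 1.27 to 1.84).

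In chm/+ heads PHGPx stood at 7311, 8007, 8186, 5358 and 7854 in the midlife libraries, against a lowest, median and highest value of 5441, 5557 and 7252 in the 6 young libraries. Here 4 of the 5 midlife libraries lay above all young ones, while CHMo12, at 5358, lay below all of them. The log2 change of 0.31 (SE 0.12, adjusted p = 0.0757) was not called, and it was called without CHMo12 (adjusted p = 0.00709) or without CHMy2, the highest young library. Within the first 10 columns alone the change was 0.66 in wt and 0.34 in chm/+, and within the last 10 it was 0.60 in wt and 0.31 in chm/+. Of these 4 values only the first was called (adjusted p = 0.00830 for the first 10 columns in wt and 0.114 for the last 10).

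Cat stood at 14302, 17754, 12589 and 17839.7 normalized counts in the midlife wt libraries, against 10498, 12840.1, 9582, 10968 and 12381 in the young wt libraries. 3 of the 4 midlife wt libraries lay above all young ones, and the lowest, 2uo1, lay below the highest young one, 2uy2. The log2 change was 0.47 (SE 0.14, adjusted p = 0.0203), or 1.38-fold (95% interval 1.13 to 1.69), and the call was lost without 2uo5, 2uy3 or 2uo2, with an adjusted p of up to 0.0831. Within the first 10 columns the wt change was 0.55 (adjusted p = 0.0249) and within the last 10 it was 0.36 (adjusted p = 0.378). In chm/+, Cat averaged 14079 ± 2543 at midlife (SD, n = 5) and 13559 ± 1808 in young flies (SD, n = 6), a log2 change of 0.05 (95% interval -0.22 to 0.31).

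The thioredoxin-dependent members were not called with age. Jafrac1 had the narrowest interval of the members, with a log2 change of 0.04 in chm/+ (95% interval -0.10 to 0.19) and of 0.05 in wt (95% interval -0.11 to 0.21). It averaged 10233 ± 452 in midlife chm/+ (SD, n = 5), 9951 ± 738 in young chm/+ (SD, n = 6), 9179.5 ± 866 in midlife wt (SD, n = 4) and 8858 ± 537 in young wt (SD, n = 5). Trxr-1 had the widest interval, 0.04 in chm/+ (95% interval -0.34 to 0.42) and 0.11 in wt (95% interval -0.30 to 0.53). Its young wt libraries were split, at 8179 to 8912 in the 3 of the first column set and 5238 and 5360 in the 2 of the last. In Ensembl's annotation of the later build BDGP6, 13.8% of the Trxr-1 exon bases overlap the antisense gene sni, and whether counting used strand is not given, so reads of the 2 genes may be mixed there.

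Of the subunit genes of glutamate-cysteine ligase, Gclm was called lower at midlife in chm/+, and Gclc was called in neither genotype. Gclm stood at 2515, 2388, 3463, 2270.0 and 2516 normalized counts in the midlife chm/+ libraries, against a lowest, median and highest value of 2914, 3911 and 4754 in the 6 young chm/+ libraries. 4 of the 5 midlife libraries lay below all young ones, and CHMo11, at 3463, lay within the young range. The log2 change was -0.58 (SE 0.17, adjusted p = 0.0268), which is 0.667-fold (95% interval 0.518 to 0.859). The call was lost when CHMo2, CHMo3, CHMy2, CHMy3, CHMy4, CHMo12 or CHMo5 was left out, with an adjusted p of up to 0.0653, and over every single omission the estimate lay between -0.69 and -0.53.

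In wt, Gclm stood at 2747, 3403, 2130.2 and 2720.4 in the midlife libraries, against 5034, 4428, 4229, 2599 and 2664 in the young ones. The 3 young wt libraries of the first column set were high, and the 2 of the last set lay within the midlife range. The log2 change of -0.43 (SE 0.19, adjusted p = 0.121) was not called, and it was called without 2uy4 or 2uy5. Within the first 10 columns Gclm changed by -0.85 in chm/+ (adjusted p = 0.000773) and by -0.57 in wt (adjusted p = 0.00372), and within the last 10 by -0.35 in chm/+ (adjusted p = 0.318) and -0.13 in wt (adjusted p = 0.753).

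Gclc averaged 3135 ± 258 in midlife chm/+ (SD, n = 5) and 2686 ± 479 in young chm/+ (SD, n = 6), a log2 change of 0.24 (95% interval -0.01 to 0.49, adjusted p = 0.208). In wt it averaged 3288 ± 225 at midlife (SD, n = 4) and 2911 ± 484 in young flies (SD, n = 5), a change of 0.19 (95% interval -0.09 to 0.47, adjusted p = 0.351). With the column set as a term the chm/+ change of Gclc was called (0.27, adjusted p = 0.0181).

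The level of Gclm relative to Gclc, per kilobase of exon, was lower at midlife in both genotypes. The ratio was 2.10, 2.14, 3.50, 2.29 and 2.36 in the midlife chm/+ libraries, against a lowest, median and highest value of 3.09, 4.35 and 5.65 in young chm/+ libraries. Only CHMo11 lay within the young chm/+ range. In wt it was 2.31, 2.86, 2.04 and 2.54 in the midlife libraries, against 4.94, 3.70, 3.83, 3.18 and 3.18 in the young ones, with no overlap and with both column sets on the same side. The ratio was formed after the values of both genes were known and was not tested. The share of other gene pairs whose ratio separates the ages in this way is not given, so the separation has no background here.

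**Figure D2:**
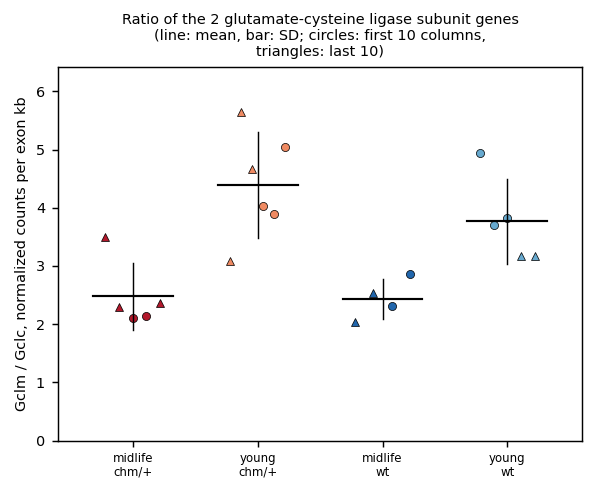
Ratio of Gclm to Gclc, each as normalized counts per kilobase of exon (y axis, from 0), in each library by group (x axis); horizontal lines are means, vertical lines the SD, and marker shapes the column sets. Means are 2.48 in midlife chm/+, 4.39 in young chm/+, 2.44 in midlife wt and 3.77 in young wt.

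Of the regulators, cnc was called higher at midlife in chm/+ and Keap1 was not called in either genotype. The cnc gene encodes several protein forms besides CncC, which the gene-level values do not separate. It stood at 12386, 12914, 11817, 13262 and 15147 normalized counts in the midlife chm/+ libraries, against a lowest, median and highest value of 9275, 10634 and 11512 in the 6 young chm/+ libraries. Every midlife chm/+ library lay above every young one, which held for 4.59% of all genes in this direction. The log2 change was 0.31 (SE 0.09, adjusted p = 0.0322), or 1.24-fold (95% interval 1.08 to 1.42), and the call was lost without CHMo3, CHMy2, CHMy3, CHMy4, CHMo12 or CHMo5, with an adjusted p of up to 0.103. Within the first 10 columns the chm/+ change was 0.34 (adjusted p = 0.0194) and within the last 10 it was 0.26 (adjusted p = 0.396).

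In wt, cnc stood at 12073, 11971, 14251 and 10397 in the midlife libraries, against 9348, 9963, 8949, 10536 and 12358 in the young ones, and the groups overlapped. Its log2 change of 0.25 (SE 0.10, adjusted p = 0.0920) was not called, and it was called without 2uo2 or 2uy5. Keap1 averaged 868 ± 79.5 in midlife chm/+ (SD, n = 5) and 820.4 ± 73.7 in young chm/+ (SD, n = 6), a change of 0.08 (95% interval -0.09 to 0.25). In wt it averaged 767 ± 99.7 at midlife (SD, n = 4) and 778 ± 55.8 in young flies (SD, n = 5), a change of -0.03 (95% interval -0.22 to 0.16).

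**Figure D3:**
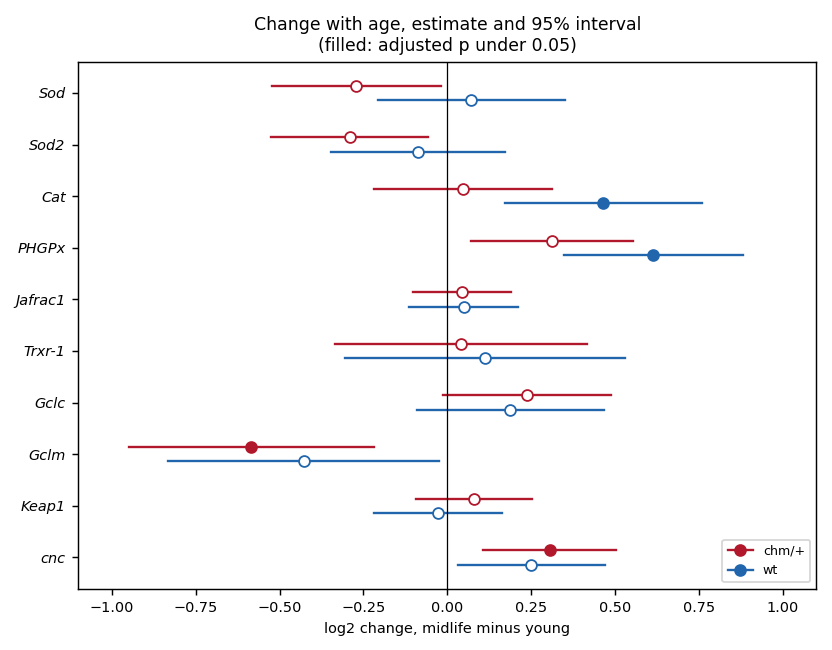
Log2 change between midlife and young heads (x axis) for each of the 10 genes (y axis) in chm/+ and wt, with 95% intervals; filled circles are changes with an adjusted p under 0.05. Filled circles are those of Gclm (-0.58) and cnc (0.31) in chm/+ and of PHGPx (0.61) and Cat (0.47) in wt.

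Averaged over both genotypes, the age change was called for 4 of the 10 members, beside 33.5% of all genes, and 6 had an unadjusted p under 0.05, beside 42.4%. This average was added after the separate comparisons were seen and uses the same libraries. PHGPx was higher by 0.46 (SE 0.09, adjusted p = 0.000319), cnc higher by 0.28 (SE 0.07, adjusted p = 0.00450), Cat higher by 0.26 (SE 0.09, adjusted p = 0.0425) and Gclm changed by -0.51 (SE 0.13, adjusted p = 0.00505). PHGPx, cnc and Gclm were called whichever library was left out, whereas the call of Cat was lost in 10 of the 20 cases. Sod2 (-0.19, adjusted p = 0.0890) and Gclc (0.21, adjusted p = 0.0739) were not called.

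Leaving out 2uo2, CHMy2 and CHMo12 together, an alternative chosen after seeing the data, gave 1 called member with age in chm/+, PHGPx (0.48, adjusted p = 0.00206), with cnc at 0.26 (adjusted p = 0.0791) and Gclm at -0.50 (adjusted p = 0.112). In wt it gave 2 called members, PHGPx (0.60, adjusted p = 0.000641) and cnc (0.32, adjusted p = 0.0388), with Cat at 0.40 (adjusted p = 0.0505). The share of all genes called in this setting is not given beside these counts.

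Markers of other cell types were summed per library, and the sums were not tested. The summed level of the 6 neuron markers was 106859 to 171884 in midlife chm/+ and 114752 to 183346 in young chm/+, and 82016 to 140924 in midlife wt and 125056 to 188863 in young wt, with overlap in both genotypes, and limma called 0 of the 6 with age in chm/+ and 2 lower in wt. The 3 of 7 gut markers in the table summed to 19713 to 34589 in midlife chm/+ and 6269 to 18549 in young chm/+, and to 23093 to 32800 in midlife wt and 9791 to 13715 in young wt, with no overlap in either genotype, and 1 of the 3 was called higher in each genotype. The 7 of 8 haemocyte markers summed to 5512 to 11142 in midlife chm/+ and 5689 to 13199 in young chm/+, which overlap, and to 9197 to 11650 in midlife wt and 4247 to 7545 in young wt, which do not. Of these 7 markers, 0 were called higher and 2 lower with age in chm/+, and 4 higher and 0 lower in wt. The 7 of 8 head fat body markers summed to 323423 to 591604 in midlife chm/+ and 400232 to 845308 in young chm/+, and to 238522 to 447807 in midlife wt and 289358 to 591110 in young wt, with overlap in both genotypes. The median sum was lower at midlife, at 461697 against 567501 in chm/+ and 284700 against 353687 in wt. The median log2 change of the 7 markers was 0.37 in chm/+ and 0.39 in wt, so the sums ran against most markers. Of the 7, 0 were called higher and 1 lower in chm/+, and 1 higher and 0 lower in wt. For the photoreceptor, glia and muscle markers the sums of midlife and young heads also overlapped in both genotypes. Of the 6 glia markers, 1 was called higher and 2 lower with age in wt, and 0 were called in chm/+. Of the 7 muscle markers, 1 was called lower in wt and 0 were called in chm/+. The photoreceptor markers held 0 calls in either genotype. Among all genes, 16.0% were called with age in chm/+ and 23.7% in wt. Their part in the changes of the antioxidant genes was not tested, and in pooled heads fewer cells of a type cannot be told apart from less RNA per cell.

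The study's other question was how the genotypes differ at each age. Of the 10 genes, 0 were called between chm/+ and wt at midlife with limma, beside 1.95% of all genes, and 0 had an unadjusted p under 0.05, beside 13.3% of all genes. In young flies 0 were called, beside 1.45% of all genes, and 2 had an unadjusted p under 0.05, Jafrac1 and Cat, beside 15.3% of all genes. These comparisons share their libraries with the age comparisons. At midlife the log2 differences of the members lay between -0.21 for Sod (95% interval -0.49 to 0.07) and 0.18 for Keap1 (95% interval -0.01 to 0.37). In young flies they lay between -0.12 for Gclc (95% interval -0.37 to 0.13) and 0.27 for Cat (95% interval 0.002 to 0.53, adjusted p = 0.326).

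Jafrac1 kept the sign and nearly the size of its genotype difference at both ages. The sign was also kept by Keap1 (0.18 at midlife and 0.07 in young flies), cnc (0.11 and 0.06), Trxr-1 (-0.15 and -0.08) and Gclc (-0.07 and -0.12). Jafrac1 stood at 10529, 9894, 10865, 10083 and 9794 normalized counts in the midlife chm/+ libraries, against 9704, 9888, 9162 and 7965 in the midlife wt libraries, and the lowest chm/+ value lay below the highest wt value. In young flies its lowest, median and highest values were 8965, 9986 and 11119.7 in the 6 chm/+ libraries, against 8191, 8788, 8534, 9257 and 9522 in the wt libraries, and the groups overlapped. The log2 difference was 0.16 at midlife (95% interval -0.002 to 0.32, adjusted p = 0.383) and 0.17 in young flies (95% interval 0.02 to 0.31, adjusted p = 0.272). Averaged over both ages, added after these values were seen, it was 0.16 (SE 0.05, adjusted p = 0.0818), and 0 of the 10 members were called in that average, beside 4.26% of all genes, with Jafrac1 alone at an unadjusted p under 0.05 (21.8% of all genes).

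**Figure D4:**
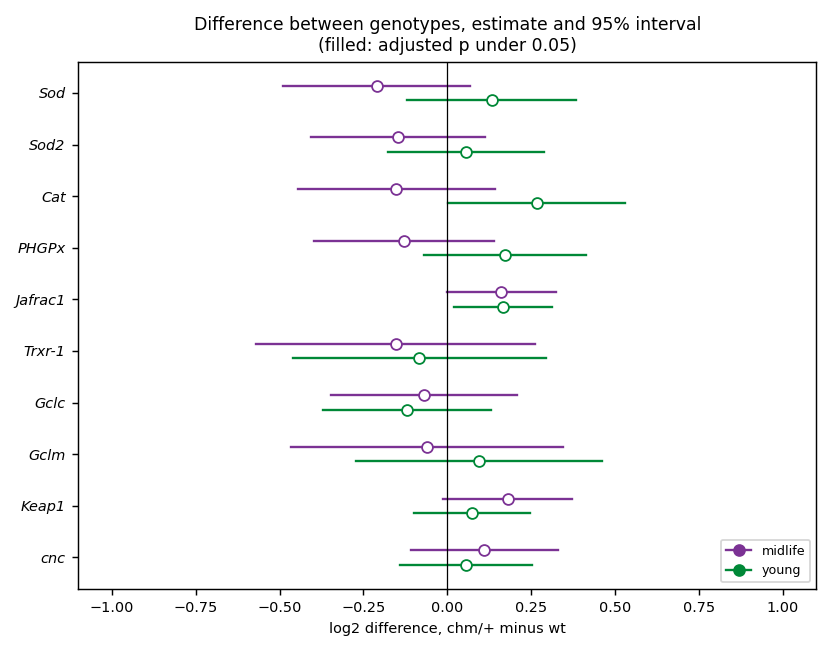
Log2 difference between chm/+ and wt heads (x axis) for each of the 10 genes (y axis) at midlife and in young flies, with 95% intervals; open circles are differences that were not called. No circle is filled, and the intervals of Jafrac1 and Cat in young flies lie above 0.

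The age changes themselves were compared between the genotypes. For 0 of the 10 members was the difference of the changes called with limma, beside 0.356% of all genes, and Cat alone had an unadjusted p under 0.05 (6.66% of all genes). The age change of Cat was 0.05 in chm/+ and 0.47 in wt, a difference of -0.42 (95% interval -0.81 to -0.02, adjusted p = 0.702). For PHGPx the difference was -0.30 (95% interval -0.66 to 0.06), for Gclm -0.16 (95% interval -0.70 to 0.39) and for cnc 0.05 (95% interval -0.24 to 0.35). The genes called in 1 genotype only were thus not shown to change differently in the other.

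Within groups several members deviated together, along the column sets. Over the 20 libraries, after subtracting group means, the score of each library on the first within-group component correlated with Trxr-1 at r = -0.96, with Sod2 at -0.93, with Sod at -0.88, with Gclc at -0.85 and with Gclm at -0.72, and with cnc at 0.80. Cat (-0.05), Jafrac1 (0.22), Keap1 (0.46) and PHGPx (-0.49) followed it less, beside a median size of 0.618 over all genes. Accordingly Sod and Sod2 deviated together (r = 0.955), as did Trxr-1 and Sod2 (0.891) and Trxr-1 and Gclm (0.806), while cnc and Trxr-1 deviated in opposite directions (-0.778). What the libraries of a column set share besides their place in the table is not given, and these values are descriptions.

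**Figure D5:**
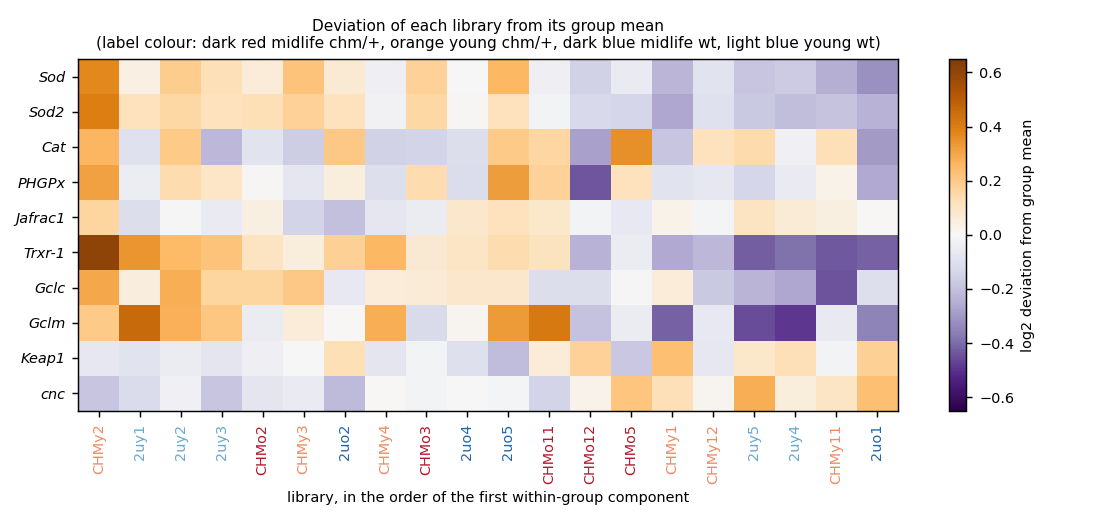
Log2 deviation of each library from its group mean (colour) for the 10 genes (rows) in the 20 libraries (columns), ordered by the first within-group component. Trxr-1 runs from 0.61 above its group mean in CHMy2 to 0.42 below it in 2uo1, at the opposite ends of the order, and cnc runs the other way, from 0.19 below its group mean in CHMy2 to 0.24 above it in 2uo1.

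For each member, the genes most like it were those with the highest Pearson r of log2 values over the 20 libraries. Sod2 was the second most like Sod (r = 0.932, after CG3321 at 0.944), and CoVa, for a cytochrome oxidase subunit, was the second most like Sod2 (0.964, after CG3192 at 0.966). For Trxr-1 these were CG3704 (0.973) and FBgn0001219 (0.971), for cnc FBgn0259142 (0.938) and the kinase gene Akt1 (0.926), for Gclc Gadd45 (0.951) and CG6051 (0.926), and for Gclm CG7430 (0.901) and CG1632 (0.886). For PHGPx they were Chmp1 (0.957) and CG1890 (0.956), for Cat CG6074 (0.92) and CG5397 (0.873), for Keap1 Fmo-2 (0.863) and CG13965 (0.85), and for Jafrac1 CG14688 (0.769) and CG9928 (0.768). Group differences and column sets both enter these values.

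Other genes of the pathway were followed from lists. Of 12 metal-binding and iron-storage genes measured, 8 were called higher and 0 lower at midlife in chm/+ and 11 higher and 0 lower in wt, beside 16.0% and 23.7% of all genes called in either direction. Fer1HCH and Fer2LCH, for the heavy and light chains of secreted ferritin, which stores iron, were among them. Fer1HCH averaged 34108 ± 3044 in midlife chm/+ (SD, n = 5) and 24840.1 ± 2220.2 in young chm/+ (SD, n = 6), and 39218 ± 1622 in midlife wt (SD, n = 4) and 24628 ± 719 in young wt (SD, n = 5). Its log2 changes were 0.46 in chm/+ (adjusted p = 0.000330) and 0.67 in wt (adjusted p = 1.21e-05), and those of Fer2LCH were 0.45 in chm/+ (adjusted p = 0.000245) and 0.81 in wt (adjusted p = 7.09e-07). The metal transporter gene Mvl was higher by 0.58 in chm/+ and 0.70 in wt. The metallothionein gene MtnB was higher by 0.93 in chm/+ (adjusted p = 0.0383), where it stood at 2.39 to 64.1 at midlife and 2.57 to 8.32 in young flies, with overlap. In wt it was higher by 2.30 (adjusted p = 5.34e-05), at 34.0 to 123 at midlife and 1.15 to 7.36 in young flies, and at such low levels the added 14.5 makes the log2 change smaller than that of the counts. Within the last 10 columns alone, where fewer of all genes were called as well, 3 genes of this list were called higher in chm/+ and 2 in wt. Without 2uo2, CHMy2 and CHMo12 the counts were 11 and 10.

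Of 14 measured genes listed as the CncC cofactor or reported CncC targets, 3 were called higher with age in chm/+ and 4 in wt, with 0 lower in each. Of all genes, 8.63% were called higher in chm/+ and 12.4% in wt, and 16.0% and 23.7% in either direction. Within the last 10 columns alone, where fewer of all genes were called as well, 0 of this list were called higher in chm/+ and 1 in wt. GstD2, a delta-class glutathione transferase gene, was higher by 1.42 in chm/+ (adjusted p = 0.00149) and 1.37 in wt (adjusted p = 0.00309). Sesn, the sestrin gene, was higher by 0.27 in chm/+ and 0.29 in wt, and ref(2)P, the homologue of the autophagy adaptor p62, by 0.31 in chm/+ and 0.34 in wt.

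Of 9 measured superoxide and peroxide enzyme genes other than the 10, 2 were called higher and 1 lower at midlife in chm/+ (16.0% of all genes called), and 3 higher and 0 lower in wt (23.7%). The 3 called in wt were the peroxiredoxin genes Prx2540-1, Prx2540-2 and CG12896, which are nearly identical copies, so reads may have been split among them and they count as a single uncertain signal. Their log2 changes in wt were 1.82, 1.76 and 1.81. In chm/+ Prx2540-1 and CG12896 were higher by 0.81 and 0.79, calls that were lost in 14 and 15 of the 20 cases of leaving out a library, with adjusted p of up to 0.144 and 0.153. Prx2540-2 changed by 0.73 in chm/+ (adjusted p = 0.0511) and was not called. Pxn, which encodes the matrix enzyme peroxidasin, changed by -0.39 in chm/+ (adjusted p = 0.0321), and the call was lost without CHMo3, CHMy2, CHMy3, CHMy4, CHMo12 or CHMo5.

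Of 13 measured genes of glutathione synthesis and use, 1 was called higher and 4 lower at midlife in chm/+, beside 8.63% of all genes higher and 7.36% lower, and 3 higher and 3 lower in wt, beside 12.4% higher and 11.3% lower. Among them sepia (se), for an omega-class glutathione transferase of eye pigment synthesis, averaged 1254 ± 178 in midlife chm/+ (SD, n = 5) and 2720.3 ± 395 in young chm/+ (SD, n = 6), and 1385 ± 98.5 in midlife wt (SD, n = 4) and 2877 ± 344 in young wt (SD, n = 5). For se the log2 changes were -1.11 in chm/+ (adjusted p = 8.17e-07) and -1.04 in wt (adjusted p = 4.10e-06). GstS1, for the sigma-class transferase, was higher by 0.55 in chm/+ and 0.42 in wt, and GstZ1, of the zeta class, by 1.05 in wt. In chm/+ the GstZ1 change of 0.47 (adjusted p = 0.207) was not called. Of 7 genes listed for NADPH supply, 1 was called higher and 1 lower in chm/+ (16.0% of all genes called), and 4 higher and 1 lower in wt (23.7%). Those higher in wt include Nmdmc (1.28, adjusted p = 0.0259), and whether each listed gene supplies NADPH in these heads was not tested. In wt 0 of the 7 were called higher and 1 lower within the last 10 columns alone, where fewer of all genes were called as well. Men-b, for a mitochondrial malic enzyme, changed by -0.46 in chm/+ and -0.60 in wt, and pug, for an enzyme of folate metabolism, by 0.50 in chm/+ and 0.66 in wt.

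Of 5 measured genes of the thioredoxin and glutaredoxin system, 0 were called with age in chm/+ (16.0% of all genes) and 1 in wt (23.7%), Txl (0.24, adjusted p = 0.0374), whose call was lost in 6 of 20 cases of leaving out a library. Of 13 measured oxidant sources and redox regulators, 1 was called higher and 0 lower in each genotype. Of all genes, 8.63% were called higher in chm/+ and 12.4% in wt, and 16.0% and 23.7% in either direction. The genes called were DJ-1alpha in chm/+ (0.67, adjusted p = 0.00138) and the xanthine dehydrogenase gene ry in wt (0.37, adjusted p = 0.0312). In the other genotype they changed in the same direction without a call, DJ-1alpha by 0.38 in wt (adjusted p = 0.0664) and ry by 0.24 in chm/+ (adjusted p = 0.146). The call of ry was lost in 4 of 20 cases. Without 2uo2, CHMy2 and CHMo12 the list of oxidant sources held 2 called higher in chm/+ and 0 in wt, the glutathione list 2 called higher in chm/+, the peroxide enzymes 0 called lower in chm/+ and the thioredoxin system 1 called higher in chm/+.

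Between genotypes at midlife, 1 of the 14 genes of the CncC list and 2 of the 12 metal genes were called lower in chm/+. In young flies 1 of the 14 was called higher and 1 lower in chm/+. The other lists held no call at a single age, and 1.95% of all genes were called at midlife and 1.45% in young flies. GstE1, an epsilon-class transferase gene, was higher in young chm/+ (1329 ± 95.9, SD, n = 6) than in young wt (1015 ± 59.0, SD, n = 5). The log2 difference was 0.38 (adjusted p = 0.000850), and within the last 10 columns alone it was 0.35 (adjusted p = 0.392) and not called. At midlife Cyp6a2, a detoxification P450 gene, stood at 434 ± 66.4 in chm/+ (SD, n = 5) and 1581 ± 236 in wt (SD, n = 4), a difference of -1.83 (adjusted p = 0.00135). It was not called within the first 10 columns alone (-1.63, adjusted p = 0.055) or the last 10 (-2.01, adjusted p = 0.0933). Fer2LCH stood at 24157 ± 2386 in midlife chm/+ (SD, n = 5) and 31861 ± 2317 in midlife wt (SD, n = 4), a difference of -0.40 (adjusted p = 0.00781). This difference was not called without 2uo5 (adjusted p = 0.0502) or with the midlife groups fitted alone (adjusted p = 0.123). Nor was it called within the last 10 columns (-0.31, adjusted p = 0.460) or with the column number as a block (-0.35, adjusted p = 0.0545). MtnB differed by -1.29 at midlife (adjusted p = 0.0491), a call lost in 18 of 20 cases of leaving out a library. Cyp6a2 was also lower in young chm/+ than in young wt, by -2.54, and these 4 genes make up the calls between genotypes at a single age in the 7 lists.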

How the data were processed

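RNA-seq libraries of pooled male heads were analysed in 4 groups of 5, 6, 4 and 5. The tools and build named, per the submitters' processing notes, are TopHat2 (2.0.5), edgeR and BDGP5. Which step each did, and which edgeR version, is not given in the sources used here. In the deposited table, each gene has 1 normalized signal per library, called normalized counts in the text, and the authors' normalization is not described further. Column totals were 27572012 to 30470376. The values were not whole numbers, and the best step made 11.7% to 86.3% of low values whole (tolerance 0.02), so read counts were not recovered, the depth is unknown and no count model was used.

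limma (3.58.1, in R 4.3.3) was fitted to the log2 of the value plus 14.5 (0.5 CPM of the mean column total), with all 4 groups in 1 model and an intensity trend in the prior variance. Of 9831 genes, 0 failed the filter of 1 CPM in 4 libraries. Tests were two-sided, with Benjamini-Hochberg adjustment over all genes. The 2 averaged comparisons were added after the data were seen. The addend, filters, scaling, array weights, replicate block, column set, groups fitted and libraries left out were varied, and the fit was tested on simulated data. Whether replicate numbers pair libraries is not given. Deviations of same-numbered columns correlated at -0.533 to 0.656, and because the column sets enter these values they cannot decide it.

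The genes and lists were chosen with earlier results of these data known. Named pathway genes were, per list and comparison, at most the 3 called genes with the smallest p. Exon lengths and overlaps come from Ensembl's BDGP6 annotation, a later build than the one named in the notes, and no coordinates are given. No sequence was used here.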

Additional observations from a re-analysis of the deposited data

Results flagged for a closer look

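Of the 40 combinations of a member and a group, 4 held a library far from the others of its group, judged by its gap to the nearest library over the range of the group, and chance alone gives about 1 in 20. PHGPx in young chm/+ was highest in CHMy2, at 7252 normalized counts. Gclm in midlife chm/+ was highest in CHMo11, at 3463. Keap1 in young chm/+ was highest in CHMy1, at 966. Trxr-1 in midlife wt was lowest in 2uo1, at 5676. The gap was 0.716 of the range for PHGPx, 0.794 for Gclm, 0.772 for Keap1 and 0.847 for Trxr-1.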

How the results depend on the processing

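Of 2280 alternative values of the members' changes, 2126 kept their direction and their side of the threshold, 38 lost a call, 37 gained a call and 79 changed sign. Only 8 of the members' changes were called as reported, and only the alternatives of these could lose a call. None of the 79 that changed sign was called in either setting, and the largest had a log2 change of 0.11 as reported. Of 1948 alternative values of the other named genes, 139 lost a call. Depth is unknown and could not be varied. Scaling to equal totals moved the median of all genes by at most -0.05 (log2). The cause of the shifts below was not tested. Where no gene count is printed beside a count of members or list genes, a shift over all genes is not separated from theirs. Such counts are not read as results about those genes.

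Leaving out each library in turn gave 0 to 3 members called with age in chm/+ and 1 to 4 in wt, against 2 each. Genes called between genotypes then ranged over 112 to 248 at midlife (192 with all libraries), 91 to 176 in young flies (143) and 266 to 581 averaged over ages (419), and those called for the difference of age changes over 17 to 66 (35).

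Array weights called 4 members with age in chm/+, 4 members and 3758 genes in wt, 626 genes between genotypes at midlife, 2 members and 3194 genes in young flies, 3 members and 3710 genes averaged over ages and 100 genes for the difference of age changes. The first 10 columns alone called 4 members with age in wt, 292 genes between genotypes in young flies, 1 member averaged over ages (Keap1, 0.20, adjusted p = 0.0300) and 61 genes for the difference of age changes. The last 10 columns alone called 0 members and 364 genes with age in chm/+, 0 members and 391 genes in wt, 2 members and 1523 genes averaged over genotypes, 16 and 17 genes between genotypes at midlife and in young flies, 71 averaged over ages and 1 for the difference of age changes. A mean of at least 10 CPM, which tests fewer genes, gave 1006 genes with age in chm/+, 81 and 67 between genotypes at midlife and in young flies, 219 averaged over ages and 17 for the difference of age changes. The column set as a term gave 6 members with age in chm/+, and 357, 394 and 968 genes between genotypes at midlife, in young flies and averaged over ages. No gene count is printed beside these 6 members, so they are not read as a gain among antioxidant genes. The same holds for the members called by array weights in chm/+ and by the first 10 columns in wt. Fitting the compared groups alone gave 118 genes between genotypes at midlife. The replicate block gave 127 genes there and 216 averaged over ages, with 2 members called with age in each genotype. With it the midlife genotype differences of Fer2LCH (-0.35, adjusted p = 0.0545) and MtnB (-1.07, adjusted p = 0.170) and the age changes in chm/+ of Prx2540-1 (0.61, adjusted p = 0.0816) and CG12896 (0.59, adjusted p = 0.0876) were not called. Without 2uo2, CHMy2 and CHMo12 there was 1 member called with age in chm/+, 125 genes between genotypes at midlife and 277 averaged over ages.

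The log2 values that changed sign were these. With array weights, Trxr-1 with age in wt was -0.0088, in young flies the genotype difference was -0.0712 for Sod2 and -0.132 for Gclm, averaged over ages it was -0.0204 for PHGPx and -0.145 for Gclm, and the difference of age changes was 0.137 for Trxr-1 and -0.0493 for cnc. With the first 10 columns, the age change was -0.0503 for Cat and -0.176 for Trxr-1 in chm/+, -0.0385 for Trxr-1 in wt, and averaged over genotypes -0.107 for Trxr-1 and -0.0027 for Keap1. The genotype difference there was -0.0393 for Gclm in young flies and, averaged over ages, 0.0234 for Sod2, -0.013 for Cat, -0.0029 for PHGPx and -0.178 for Gclm, and the difference of age changes was -0.014 for cnc. With the last 10 columns, the age change in wt was 0.0413 for Sod2, -0.136 for Jafrac1 and 0.0204 for Keap1, and -0.0555 for Jafrac1 averaged over genotypes. The genotype difference there was 0.167 for Gclm at midlife, and 0.0175 for Trxr-1 and -0.0312 for cnc in young flies, and the difference of age changes was 0.161 for Jafrac1 and -0.0014 for Gclc. With the replicate block, Cat with age in chm/+ was -0.0583, Gclc between genotypes at midlife 0.0077, Gclm averaged over ages -0.0377 and the difference of age changes of Jafrac1 0.0042. With equal totals, averaged over ages PHGPx was -0.0257 and Gclm -0.03, and the difference of age changes of Jafrac1 was 0.0034. Without 2uo2, CHMy2 and CHMo12, Sod2 in young flies was -0.0241, Keap1 with age averaged over genotypes -0.0234, and the difference of age changes 0.169 for Trxr-1 and -0.0614 for cnc.

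Leaving out single libraries, the age change ranged over -0.0414 to 0.117 for Cat and -0.0459 to 0.162 for Trxr-1 in chm/+, -0.0875 to 0.0431 for Keap1 and -0.0138 to 0.178 for Sod in wt, and -0.004 to 0.0613 for Keap1 averaged over genotypes. The genotype difference ranged over -0.177 to 0.0474 for Gclm at midlife. In young flies it ranged over -0.0279 to 0.21 for Gclm, -0.0241 to 0.109 for Sod2 and -0.205 to 0.0034 for Trxr-1. Averaged over ages it ranged over -0.0445 to 0.0742 for Gclm, -0.0225 to 0.0758 for PHGPx and -0.0923 to 0.0034 for Sod. The difference of age changes ranged over -0.0387 to 0.117 for Gclc, -0.0724 to 0.0314 for Jafrac1, -0.211 to 0.0506 for Trxr-1 and -0.0182 to 0.133 for cnc.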
